A study of Mus musculus with 18 samples.

Results

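Heavy polysome mRNA, the mRNA that sediments with many ribosomes in a sucrose gradient and stands for the translated pool, was compared between RAW264.7 cells given LPS for 6 h and control cells. Of the 18 libraries of the series, the 6 used for this comparison were those labelled polysome-associated mRNA with the treatment Veh (3 control libraries) or 6h_LPS (3 LPS libraries). The question was which mRNAs enter or leave the translated pool, over all 11243 protein-coding genes counted. RAW264.7 is a mouse macrophage line, and every group is a culture of this 1 line with no genetic change named. Control cultures received the vehicle DMSO, and LPS cultures received 500 ng/mL of lipopolysaccharide from Salmonella minnesota Re 595 for 6 h. Replicates 1, 2 and 3 came from independent experiments, named experiments 1 to 3 here. Total mRNA of the same lysates (3 control and 3 LPS libraries) was set beside the polysome values. The libraries of cells given LPS with the mTOR inhibitor torin1 entered only the scaling, the estimate of the spread and the mean levels that sort genes.

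LPS, a component of the outer membrane of Gram-negative bacteria, is bound by CD14 and by the receptor pair TLR4 and MD-2 on macrophages. The receptor signals through MyD88 to NF-kB and MAP kinases, which switch on cytokine and chemokine genes, and through TRIF to IRF3, which leads to type I interferon and, through STAT factors, to interferon-stimulated genes. Actively translated mRNAs carry several ribosomes, so an mRNA can become more abundant in heavy polysomes because the cell holds more of it or because more of it is loaded with ribosomes.

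The 6 libraries held 34930909 to 45801886 counts. Levels are given as CPM, counts scaled to a common library size, after TMM scaling, which sets the typical gene equal between libraries, unless library totals are named. The TMM factors were 1.13 to 1.19 in control and 0.887 to 0.924 with LPS. In control libraries, 983, 1014 and 1010 genes made up 50% of the counts, and with LPS 666, 690 and 675 genes did so, so the LPS pool was held by fewer genes in all 3 experiments. The counts are relative: the table does not show how much mRNA was in polysomes, so less of an mRNA and more of the others cannot be told apart, and neither can less RNA per cell and fewer cells that hold it. The 10 macrophage markers chosen to check the cells were all detected, among them Lyz2 (lysozyme) at 11490, 11675 and 12299 CPM and Cd68, a lysosomal membrane protein, at 916, 859 and 769 CPM in control. Lymphocyte, epithelial, neutrophil and erythroid markers were not analysed here, because the table holds only genes counted in every library. Of the fibroblast and endothelial markers, the 2 with values, Cdh5 (0.182, 0.180 and 0.432 CPM in control and 0.387, 1.14 and 1.43 CPM with LPS) and Pdgfrb (1.34, 1.28 and 0.883 and 0.516, 0.381 and 0.493 CPM), were near the lower end of detection.

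LPS shifted the level of most mRNAs in heavy polysomes, and rises and falls were of similar number. With edgeR's quasi-likelihood test at an adjusted p of at most 0.25, 6191 of 11243 mRNAs (55.1%) were called. Of these, 2965 (26.4% of all genes) were higher with LPS and 3226 (28.7%) were lower. All 3 LPS libraries were above all 3 control libraries for 2494 genes (22.2%) and below them for 2702 genes (24%), and 4990 called genes had groups that did not overlap. The calls and the separation of groups come from the same libraries, so neither is separate support for the other. "Rose", "fell" and "called" below refer to this test. Most called changes were small: 1739 called genes (28.1%) changed by less than 0.5 on the log2 scale and 4078 (65.9%) by less than 1, with a median of 0.70 for the genes that rose and −0.77 for those that fell.

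The split into rises and falls depended on the scaling. With library totals in place of TMM factors, the median change of all genes moved from −0.03 to −0.38 on the log2 scale, and 1539 genes were called higher and 6101 lower, so that 20.1% of the calls were rises against 47.9% with TMM. Without experiment 1 the number of calls was 3901, of which 1881 were higher and 2020 lower. Without experiment 3 it was 4224, and without experiment 2 it was 7251. For the gene lists below, brackets give the numbers that rose and fell without 1 experiment or with library totals where either moved by over 1.5 times.

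Large changes, defined as an adjusted p of at most 0.05 in the same test and at least 1 on the log2 scale, numbered 954 rises (8.49% of all genes) and 962 falls (8.56%). Rises reached further than falls. Among the called genes, 419 rose and 196 fell by at least 2 on the log2 scale, 92 rose and 1 fell by at least 4, and 27 rose and 0 fell by at least 6. Of the large changes, 953 rises and 959 falls went the same way in all 3 experiments. They were chosen from these same libraries, so this agreement was largely built in. Without experiment 1, 740 large rises and 532 large falls were found, and with library totals there were 1858 large falls. Rises and falls also sat at different mean levels over the 9 polysome libraries, those with torin1 included. Among the genes with a mean of at least 62.3 CPM, 464 were large rises and 91 large falls. Among those of at most 16.5 CPM, 283 were large rises and 557 large falls. Most of these libraries were given LPS, so a rise itself lifts a gene's mean and a fall lowers it. This contrast is therefore in part built in. The plot of LPS against control levels shows both classes over the range of levels.

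**Figure D1:**
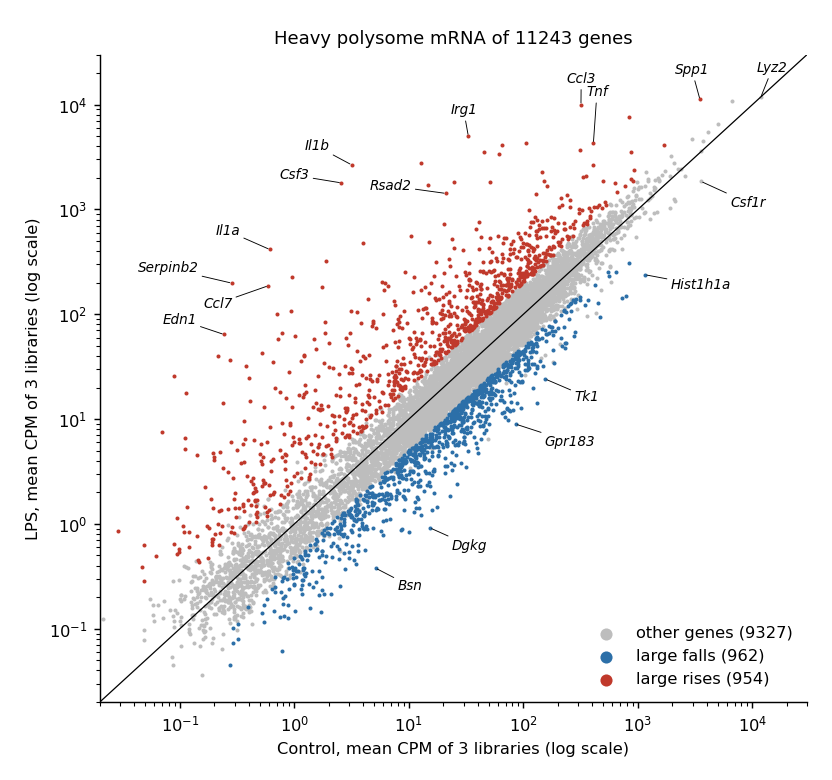
Mean CPM of the 3 LPS libraries (y axis) against that of the 3 control libraries (x axis) for 11243 genes in heavy polysomes, both on log scales, with the diagonal at equal levels. Red points are the 954 large rises and blue points the 962 large falls. Rises reach further from the diagonal, to 9.73 on the log2 scale for Il1b, than falls, which end at −4.06 for Dgkg.

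Few genes gained and many lost in the composition of the translated pool. As shares of all counts in a library, 2909 genes gained and 8334 lost, and the gains summed to 20.4% of the counts. Between any LPS and any control library, 20.1 to 24.3% of the counts differed (9 pairs), against 7.59 to 11.3% between control libraries and 9.23 to 12.02% between LPS libraries (3 pairs each), so these ranges did not overlap. The 10 genes with the largest gains took 22.2% of all gains and the top 100 took 55.7%, while the 10 and 100 genes with the largest losses gave up 6.91% and 20.9% of all losses.

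The mRNA that gained most encodes Ccl3, a chemokine that attracts monocytes. Ccl3 went from 0.0370 ± 0.0109% (mean ± SD, n = 3) to 0.908 ± 0.218% of all counts. It was at 322, 405 and 228 CPM in control and at 7669, 12209 and 10069 CPM with LPS, 4.97 ± 0.29 (SE) on the log2 scale. The other large gains were also of immune genes: Spp1 (osteopontin, a secreted adhesive protein) from 0.405 ± 0.0962% to 1.02 ± 0.324%, the chemokine Ccl9 from 0.0965 ± 0.0171% to 0.689 ± 0.278%, and Irg1 (Acod1, which makes itaconate from cis-aconitate) from 0.00386 ± 0.00199% to 0.456 ± 0.0484%. They were followed by Ccl4, Il1rn, Tnf, Ptgs2, the TNF receptor Tnfrsf1b and Odc1, the first enzyme of polyamine synthesis, each with a gain of 0.296 to 0.379 percentage points. These genes were picked by their gains, so the values describe them and test nothing.

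The largest loss of a single gene was 0.307 percentage points, of Lyz2, against a largest gain of 0.871 points, of Ccl3. Lyz2 went from 1.37 ± 0.0647% to 1.07 ± 0.199% of all counts, although its TMM-scaled change was −0.01 on the log2 scale and was not called. Csf1r, the receptor for the growth factor CSF1, went from 0.412 ± 0.0802% to 0.168 ± 0.0163%. Its levels were 4413, 2884 and 3393 CPM in control and 1682, 1942 and 1922 CPM with LPS, with every LPS library below every control library, and it fell by 0.95 ± 0.18 (SE) on the log2 scale (edgeR's quasi-likelihood test, adjusted p = 0.00236). Itga4, the alpha 4 integrin, went from 0.223 ± 0.0230% to 0.0935 ± 0.0157%, and the linker histone Hist1h1a from 0.134 ± 0.0181% to 0.0216 ± 0.00214%. The large rises together held 6.81 ± 0.605% of the control pool and 23.2 ± 0.747% of the LPS pool, and the large falls 4.99 ± 0.497% and 1.40 ± 0.147% (mean ± SD, n = 3). The plot of pool shares gives the same quantity for gene groups.

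**Figure D2:**
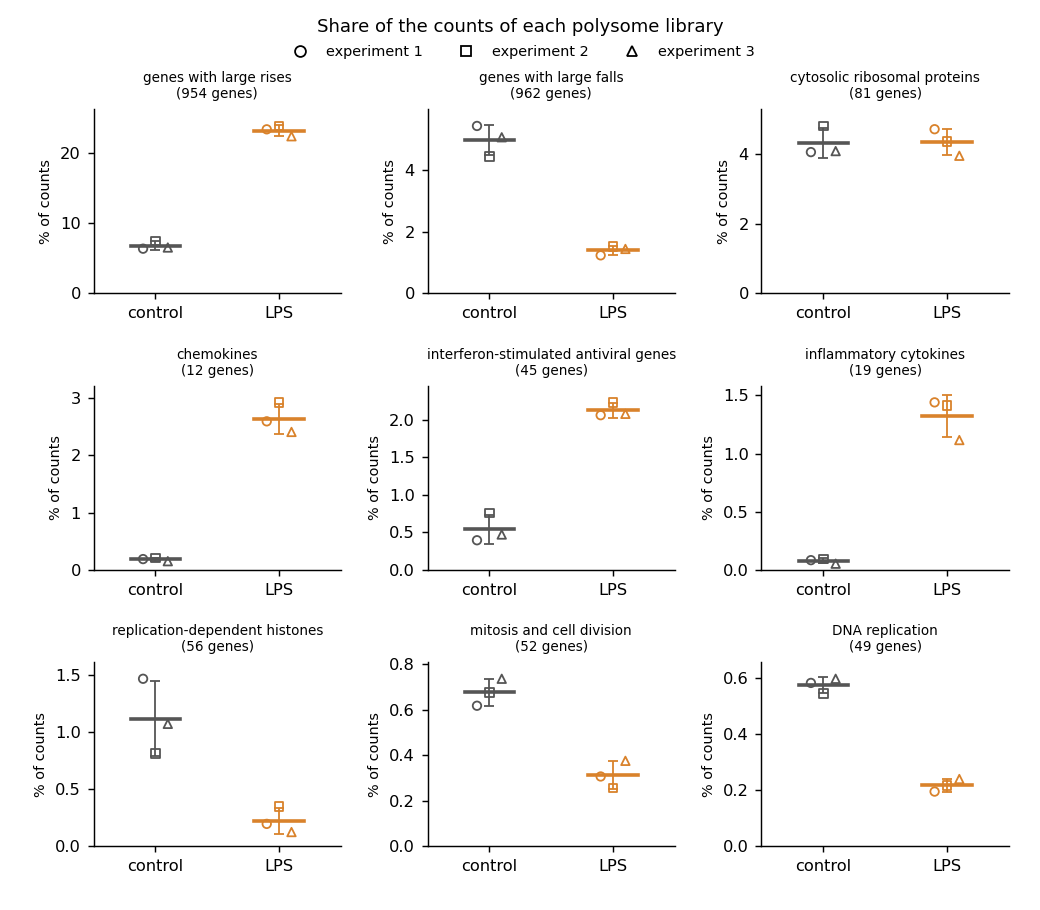
Share of all counts of each heavy polysome library, in percent on the y axis from 0, taken by 9 groups of genes in control and with LPS. Circles, squares and triangles are experiments 1 to 3, and the thick line and bar are the mean and SD (n = 3). Chemokines, antiviral genes and cytokines take more in every LPS library than in any control library, histone, mitosis and DNA replication genes less, and the ribosomal protein shares overlap; large rises and falls were chosen by this contrast.

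Some mRNAs crossed from under 1 CPM to a clear level. The table holds genes with counts in all 18 libraries, so an mRNA with no count in any 1 library could not be counted here as entering or leaving. Called genes under 1 CPM (library totals) in all 3 controls and of at least 5 CPM in all 3 LPS libraries numbered 16, out of 767 genes under 1 CPM in all controls. These entering mRNAs took 0.106% of the LPS pool. The most abundant was Il1a, a cytokine of the interleukin-1 family, with 35, 30 and 19 counts in control and 17966, 8953 and 16855 counts with LPS. Ccl7, a monocyte chemokine, had 27, 32 and 23 counts in control and 7286, 7614 and 5058 with LPS. Both passed 100 CPM in all 3 LPS libraries, and the other 14 did not. Serpinb2, an inhibitor of plasminogen activators, had 16, 19 and 3 counts in control and 11469, 4982 and 3780 with LPS.

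Among the other entering mRNAs, Edn1 encodes the peptide endothelin-1 and had 8, 10 and 17 counts in control and 1532, 4028 and 1570 with LPS. The matrix metalloproteinases Mmp9 and Mmp14 had 18, 18 and 40 and 17, 9 and 12 counts in control, and 841, 1588 and 2307 and 1352, 1001 and 1548 with LPS. The uridine phosphorylase Upp1 had 23, 22 and 6 counts in control and 815, 1691 and 1011 with LPS. Lipg (endothelial lipase), Bcl6b, Flrt3, Pilra, Pyhin1, Col5a3, Trem1, Cfb (complement factor B) and Ifi205 complete the set, with 220 to 2493 counts in each LPS library and 1 to 35 in each control library. A further 19 called genes lay just outside, with controls of 1 to 2 CPM. Leaving out 1 experiment gave 18 to 31 entering genes, 31 of them without experiment 2, and limits of 0.5 and 10 CPM gave 4.

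By the mirrored rule, and under the same limit of the table, 4 mRNAs left the pool: Plekhg5, Hist1h2an, Rab27a and Bsn. Plekhg5, an exchange factor for RhoA, had 467, 285 and 468 counts in control and 23, 43 and 31 with LPS. Rab27a, a GTPase of secretory vesicles, had 277, 280 and 280 and 16, 37 and 35 counts. The number was 0 with limits of 0.5 and 10 CPM, 1 with TMM-scaled CPM and 5 to 7 without 1 experiment, with 7 each without experiment 2 and without experiment 3.

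The secreted signals rose together. All 19 inflammatory cytokines and growth factors analysed were higher (median 4.57 on the log2 scale, against −0.03 for all genes), and 18 of them were large rises, all but Vegfa (0.90). Il1b, the precursor of interleukin-1 beta, was at 2.98, 4.68 and 1.80 CPM in control and at 4309.6, 1332 and 2356 CPM with LPS. It had the largest change of all genes, 9.73 ± 0.59 (SE) on the log2 scale (edgeR's quasi-likelihood test, adjusted p = 2.98e-06). The LPS libraries spanned more than 3-fold with experiment 2 lowest, but each was far above every control. Csf3, which drives neutrophil production, went from 2.46, 3.06 and 2.16 CPM to 1318, 2725 and 1335 CPM (9.45), with experiment 2 highest.

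Tnf, which encodes tumour necrosis factor, was already in control polysomes at 452, 549.5 and 224 CPM and rose to 3758, 5334 and 3737 CPM (3.39 ± 0.36 (SE) on the log2 scale). Antagonist and anti-inflammatory mRNAs were also among the rises. Il1rn, the interleukin-1 receptor antagonist, rose from 53.2, 83.8 and 59.6 CPM to 5131, 4033 and 3134 CPM (5.97). The anti-inflammatory cytokine Il10 rose by 5.17 on the log2 scale. Of other cytokines, the leukaemia inhibitory factor Lif rose by 7.92 and the pro-inflammatory Il18 by 2.19. The group took 0.0836, 0.0953 and 0.0533% of the control pools and 1.44, 1.41 and 1.12% of the LPS pools. Il6, Il12b, Ifnb1, Csf2, Cxcl1 and Nos2, well-known LPS response genes, were not analysed here.

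Of the 12 chemokine mRNAs, 11 rose and Cxcl14 (−0.80) did not pass the test (11 and 1 without experiment 2). They took 0.188, 0.209 and 0.152% of the control pools and 2.59, 2.92 and 2.41% of the LPS pools. Cxcl2, a neutrophil attractant, was at 15.8, 16.7 and 6.05 CPM in control and at 1992, 4161 and 2221 CPM with LPS, 7.76 ± 0.52 (SE) on the log2 scale. The monocyte and T cell attractants Ccl4 (97.1, 142 and 76.8 CPM to 4222, 4659.7 and 4061 CPM), Ccl2 (29.03, 22.02 and 23.6 to 1637, 2285 and 1566 CPM) and Cxcl10 (40.0, 62.7 and 51.8 to 1483, 2256 and 1769.7 CPM) had changes of 5.36, 6.20 and 5.16. No LPS library of these 4 genes came near a control library. The plot of single genes by library sets several of them beside genes that fell.

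**Figure D3:**
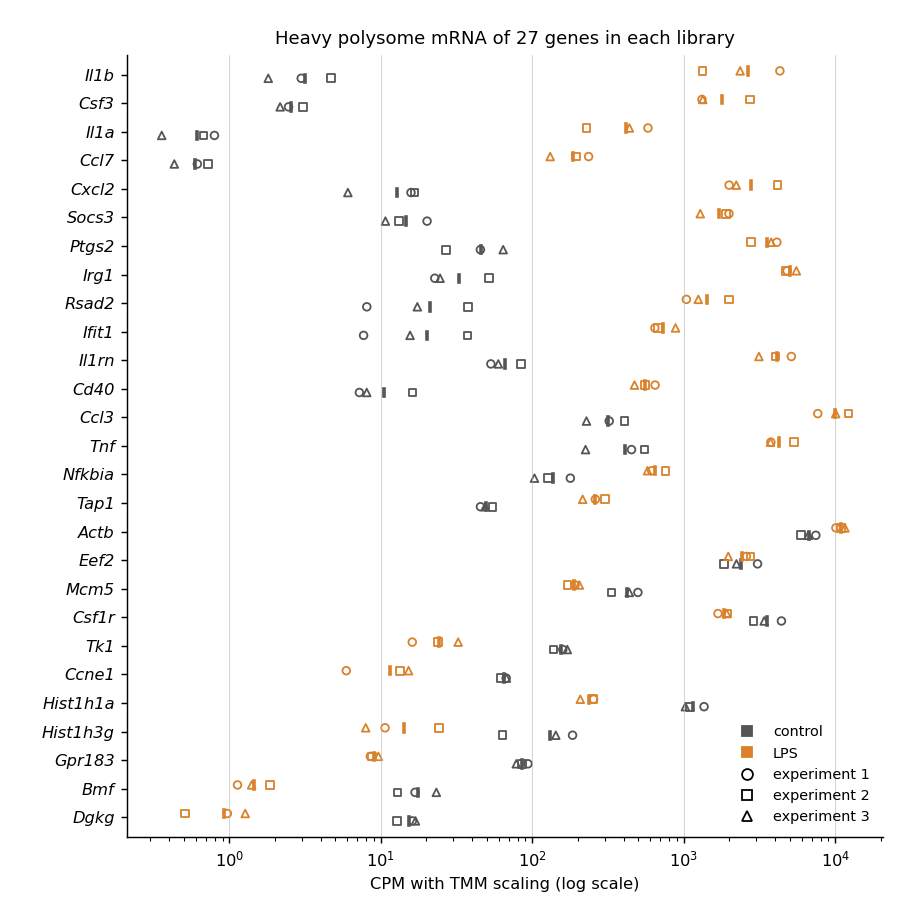
Level of 27 mRNAs in each heavy polysome library, as TMM-scaled CPM on a log scale. Grey symbols are control and orange symbols LPS libraries, with circles, squares and triangles for experiments 1 to 3 and a bar at each mean. From Il1b down to Actb all LPS symbols lie right of all control symbols, for Eef2 they overlap, and from Mcm5 down to Dgkg they lie left of them.

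Genes that receive the signal had more rises than falls. Of 28 genes of Toll-like receptor signalling, 17 rose (60.7%) and 3 fell (10.7%), against 26.4% and 28.7% of all genes. The median was 0.77. The numbers were 18 and 5 without experiment 2, 16 and 2 without experiment 3, and 16 and 9 with library totals. The LPS receptor itself, Tlr4, was at 5158, 5995 and 6032 counts in control and 5497, 4098 and 3442 counts with LPS, and after scaling the groups overlapped and its change of 0.02 was not called. Its co-receptor Cd14 went from 1948, 1624 and 1477 CPM to 4489, 4304 and 3631 CPM (1.299 ± 0.18 (SE) on the log2 scale), all LPS libraries above all controls. The double-stranded RNA sensor Tlr3 rose by 2.83 and the kinase Ikbke by 2.43. The adaptor Ticam2 (−1.15) and the kinase partner Tab1 (−0.83) fell, and the remaining fall was of Tlr13, named only to complete the count.

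NF-kB genes rose on both sides of the pathway. Of 20 mRNAs of NF-kB subunits and inhibitors, 17 rose and none fell (median 1.19; 14 and 1 with library totals), and the subunit Rela (0.15), Cyld (−0.22) and Tnip3 (0.31), named to complete the count, did not pass the test. Nfkbiz, a nuclear co-regulator of NF-kB, went from 16.2, 16.4 and 12.4 CPM to 566, 514 and 386 CPM, 5.03 ± 0.25 (SE) on the log2 scale (edgeR's quasi-likelihood test, adjusted p = 8.66e-07). Nfkbia, the inhibitor that holds NF-kB in the cytoplasm, went from 178, 126.7 and 103.3 CPM to 614, 756 and 576 CPM (2.25). Tnfaip3 (A20), which edits ubiquitin chains and dampens the pathway, went from 22.2, 29.8 and 14.9 CPM to 519, 235 and 264 CPM (3.93).

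The promoters of Cxcl2 and Nfkbia are shown because these mRNAs rose together and their windows hold a simplified NF-kB motif. The motif searched was GGGANNTTC on either strand, in the 300 bases from 250 before to 50 after the RefSeq start. The stretches, from RefSeq on GRCm38.p6, lie at chr5:90903777-90903837 on the plus strand for Cxcl2, where both matches overlap, and at chr12:55492642-55492785 on the minus strand for Nfkbia. Capitals mark the matches.
Cxcl2: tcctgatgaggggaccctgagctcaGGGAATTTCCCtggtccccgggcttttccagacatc
Nfkbia: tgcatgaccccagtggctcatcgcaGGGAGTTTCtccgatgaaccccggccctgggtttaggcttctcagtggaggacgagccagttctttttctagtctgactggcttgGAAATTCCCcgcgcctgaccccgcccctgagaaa
The same motif stood in 5.11% of the windows of large rises, 5.36% of those of large falls and 3.39% of those of other genes, and in 3.87% of 27025 RefSeq windows. A match is a description of letters, and binding was not measured.

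Transcription factors of the immediate early class moved in both directions and unevenly between experiments. Of 25 genes of the AP-1, EGR, ATF3 and MYC group, 12 rose and 6 fell, with experiment medians of −0.15, 1.38 and 0.46 on the log2(CPM + 0.5) scale. Atf3, a repressor of inflammatory genes, went from 4046, 5019 and 1936 counts to 18640, 26097 and 9383 counts (2.64), with experiment 3 lowest in both groups. Ier3, an immediate early gene, rose by 4.10. The myeloid factor Cebpa fell by 1.66 and Klf10 by 1.47. Without experiment 1, 12 rises and 2 falls were called. Among 14 IRF and STAT factors, which relay interferon signals, 10 rose and 1 fell (median 1.02; 10 and 3 without experiment 2, 9 and 0 without experiment 3, 9 and 3 with library totals). Stat2 rose by 2.38 and Irf7 by 2.29, while Irf3 (−0.67) was the fall, a call that was lost without experiment 3, at −0.54.

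Feedback mRNAs rose with the signals. Of 25 genes for mRNA decay, cytokine receptor inhibition and MAP kinase dephosphorylation, 16 rose and 2 fell (median 1.53; 16 and 0 without experiment 1, 17 and 3 without experiment 2, 15 and 1 without experiment 3). Socs3, an inhibitor of cytokine receptor signalling, was at 20.2, 13.2 and 10.7 CPM in control and at 1987, 1891 and 1284 CPM with LPS, 6.87 ± 0.37 (SE) on the log2 scale (edgeR's quasi-likelihood test, adjusted p = 1.34e-06). Dusp5, a phosphatase that acts on ERK, rose by 4.18. Zfp36 (tristetraprolin), which binds AU-rich elements and marks cytokine mRNAs for decay, went from 107.1, 61.7 and 40.6 CPM to 582, 705 and 300 CPM (2.92). Its relative Zfp36l2 fell by 0.98, a call that was lost without experiment 1, at −0.59, and the other fall was of Khsrp, named to complete the count.

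The interferon arm rose as a block. All 45 interferon-stimulated antiviral mRNAs were higher, 44 of them as large rises (all but Adar, 0.97), with a median of 2.35 on the log2 scale. Rsad2 (viperin, which makes a chain-terminating nucleotide) was at 8.07, 37.5 and 17.4 CPM in control and at 1039.9, 1979.5 and 1247 CPM with LPS, 6.08 ± 0.67 (SE) on the log2 scale (edgeR's quasi-likelihood test, adjusted p = 8.79e-05). Ifit1, which binds viral RNA ends, went from 7.68, 37.3 and 15.6 CPM to 644, 676 and 882 CPM (5.18), and the ubiquitin-like Isg15 from 20.3, 79.7 and 28.4 CPM to 536, 604 and 505 CPM (3.68). Control 2 was the highest control for all of these 3 genes, yet no control reached an LPS library.

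This baseline difference showed in the whole group. Its share of the control pools was 0.395, 0.755 and 0.472% and of the LPS pools 2.06, 2.23 and 2.08%, and the median change was 3.08, 1.75 and 2.66 in experiments 1 to 3. The cause of the higher control 2 was not tested. The 10 interferon-induced GTPases, which attack vacuoles of intracellular microbes, all rose (median 4.0). Gbp5 went from 0.500, 1.35 and 0.489 CPM to 68.8, 75.1 and 53.4 CPM (6.41) and Gbp2 rose by 5.29. All counts of rises in these 2 lists were kept without any 1 experiment.

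Promoter stretches of 3 of these genes are shown with the core of the interferon-stimulated response element in capitals, searched as GAAANNGAA on either strand in the same windows. They are from RefSeq on GRCm38.p6, at chr19:34640755-34640838 on the plus strand for Ifit1, chr4:156200851-156200921 on the minus strand for Isg15 and chr12:26456538-26456596 on the minus strand for Rsad2. Overlapping matches run together, in Ifit1 for 2 of 3 and in Isg15 for all 3.
Ifit1: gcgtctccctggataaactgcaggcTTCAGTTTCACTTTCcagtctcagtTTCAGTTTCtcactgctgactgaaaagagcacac
Isg15: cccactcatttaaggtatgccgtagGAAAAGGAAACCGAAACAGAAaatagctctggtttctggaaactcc
Rsad2: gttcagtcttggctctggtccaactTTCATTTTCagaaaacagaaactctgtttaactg
The motif was found in 19 of 36 windows of the antiviral list (52.8%) and in 8 of 9 windows of the GTPases (88.9%). It was in 121 of 764 windows of large rises (15.8%), in 6.12% of those of large falls, in 6.59% of those of other genes and in 8.57% of all RefSeq windows.

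Effector genes had more rises than falls. Of 29 antimicrobial, tissue remodelling and lipid mediator genes, 18 rose (62.1%) and 6 fell (20.7%), against 26.4% and 28.7% of all genes. Their median was 1.49, and the numbers were 17 and 1 without experiment 1 and 17 and 2 without experiment 3. Ptgs2 (COX-2, the inducible enzyme of prostaglandin synthesis) was at 45.4, 26.9 and 64.2 CPM in control and at 4116, 2764 and 3775 CPM with LPS, 6.29 ± 0.37 (SE) on the log2 scale. Its constitutive counterpart Ptgs1 had a change of −1.51, a fall that was no longer called without experiment 3, at −1.49. By experiment the Ptgs1 change was −1.45, −1.42 and −1.47, on control levels of 40.5, 9.12 and 21.6 CPM. With a replicate block, edgeR's quasi-likelihood test gave Ptgs1 an adjusted p of 0.00039, against 0.103 without it. Irg1 rose from 22.7, 51.8 and 24.6 CPM to 4808, 4701 and 5538 CPM (7.25), all LPS libraries far above the controls. The NADPH oxidase subunit Cybb rose by 1.49 and the urokinase receptor Plaur by 3.36.

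Of 34 inflammasome and cell death genes, 23 rose and 4 fell. Nlrp3, the sensor that assembles an inflammasome, went from 144, 121.2 and 95.9 CPM to 748, 658 and 847 CPM (2.64 ± 0.20 (SE) on the log2 scale). The survival gene Bcl2a1b rose by 3.50, but it has near-identical copies that could share reads. Pmaip1 (Noxa) and Bcl2, which act on the mitochondrial death pathway, fell by 1.17 and 0.93, and Bmf, another pro-death gene, went from 16.8, 12.9 and 23.2 CPM to 1.13, 1.86 and 1.40 CPM (−3.58).

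Antigen presentation rose on the class I side and in costimulation. Of 23 genes of MHC class I loading and the immunoproteasome, 20 rose and none fell (median 0.81; 20 and 1 without experiment 2, 12 and 0 with library totals), and H2-Q6, H2-Q7 and Pdia3 did not pass the test. Tap1, the peptide transporter into the ER, went from 45.5, 54.5 and 48.8 CPM to 261, 301 and 215 CPM (2.38 ± 0.33 (SE) on the log2 scale), and B2m, the light chain of class I, rose by 1.11. Of 18 class II and costimulation genes, 13 rose and 1 fell (13 and 0 without experiment 1, 13 and 2 without experiment 2, 12 and 3 with library totals). Cd40, which receives help from T cells, was at 7.21, 16.2 and 8.06 CPM in control and at 646, 553 and 473 CPM with LPS (5.73), and the checkpoint ligand Cd274 (PD-L1) rose by 4.97. The class II chain H2-Ab1 (−0.48) and the peptide editor H2-DMb2 (−1.15), named here with their values seen, did not pass the test. The fall was of Havcr2 (Tim-3), a call that was lost without experiment 1, at −1.06. By experiment the Havcr2 change was −1.16, −1.45 and −0.88. With a replicate block, edgeR's quasi-likelihood test gave Havcr2 an adjusted p of 0.000608, against 0.133 without it.

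Macrophage surface genes had more rises than falls. Of 38 genes of macrophage identity and phagocytic receptors, 26 rose (68.4%) and 9 fell (23.7%; median 1.08), against 26.4% and 28.7% of all genes. The group's share of the pool was 1.71% in control and 1.48% with LPS. Taken per base of transcript, for 37 of these genes, the share was 1.74% in control and 1.68% with LPS, and the libraries overlapped. The chemokine receptor Ccr1 rose by 5.92 and Axl, which binds dying cells, by 4.71. Itgam (CD11b) went from 133.1, 120.4 and 139.9 CPM to 517, 484 and 603 CPM (2.03) and the high-affinity IgG receptor Fcgr1 rose by 2.45. Beside Csf1r, falls included Trem2, a lipid receptor (−1.04), and P2rx7, an ATP-gated channel (−1.42). The lineage factor Spi1 (PU.1, 0.32) and the adaptor Tyrobp (0.18) did not pass the test. Without experiment 1 there were 23 rises and 6 falls, and without experiment 3 25 and 6.

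Further falls are given by example. Gpr183, a receptor for oxysterols that guides immune cells, was at 93.5, 85.6 and 78.3 CPM in control and at 8.52, 8.69 and 9.63 CPM with LPS, −3.26 ± 0.15 (SE) on the log2 scale (edgeR's quasi-likelihood test, adjusted p = 5.93e-07). Dgkg, a kinase that removes diacylglycerol, had the largest fall of the pool, from 16.1, 12.8 and 16.9 CPM to 0.968, 0.508 and 1.27 CPM (−4.06 ± 0.31 (SE)). Groups did not overlap for either gene. The other 9 of the 10 largest falls were Bsn (−3.71), Cytip, Bmf, Angptl4, Zfp651, the deacetylase Hdac9, the Polycomb protein Cbx2, Ranbp3l and Plekhg5 (−3.28). The transcription factor Mef2c fell by 1.78, the Ras exchange factor Rasgrp3 by 2.04 and the RANKL receptor Tnfrsf11a, needed for osteoclast formation, by 1.44.

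Metabolic gene lists included rises and falls. Of 26 glycolysis and glucose uptake genes, 14 rose (53.8%) and 2 fell (7.7%; 10 and 2 without experiment 1, 9 and 2 without experiment 3, 7 and 9 with library totals). Pfkfb3, which makes the activator of phosphofructokinase, rose by 2.22, the glucose transporter Slc2a1 by 1.81 and the hexokinase Hk2 by 1.04. The other fall was of Pfkm, and the inhibitor of pyruvate entry Pdk1 fell by 0.93. Of 31 genes of the TCA cycle, 1 rose (3.2%) and 3 fell (9.7%), below the 26.4% and 28.7% of all genes. These numbers were 0 and 0 without experiment 1, 3 and 1 without experiment 2 and 0 and 2 without experiment 3. With library totals they were 0 and 26. Of 75 nuclear genes of the respiratory chain and ATP synthase, 8 rose (10.7%) and 2 fell (2.7%), also below these shares. The numbers were 0 and 1 without experiment 1, 20 and 15 without experiment 2 and 1 and 1 without experiment 3. With library totals they were 0 and 35. The share of the respiratory chain was 1.46% of the control pool and 1.23% of the LPS pool.

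Lipid gene lists included rises and falls, beside 26.4% of all genes called higher and 28.7% lower. Of 25 fatty acid genes, 2 rose (8.0%) and 10 fell (40.0%; 1 and 6 without experiment 1, 4 and 10 without experiment 2, 1 and 9 without experiment 3, 1 and 18 with library totals), with Cpt1a, the gate of mitochondrial fatty acid oxidation, at 51.1, 42.6 and 61.7 CPM in control and 14.3, 15.1 and 25.2 CPM with LPS (−1.51). Of 26 cholesterol synthesis and uptake genes, 6 rose (23.1%) and 4 fell (15.4%), both below the shares of all genes (10 and 6 without experiment 2, 4 and 3 without experiment 1, 3 and 12 with library totals), with Dhcr7, a late enzyme of cholesterol synthesis, at −1.18. Of 14 cholesterol efflux genes, 4 rose (28.6%) and 5 fell (35.7%; 3 and 2 without experiment 1, 2 and 5 without experiment 3, 2 and 7 with library totals). Abca1, which exports cholesterol, went from 71.8, 35.9 and 46.0 CPM to 511, 142 and 302 CPM (2.64), the desaturase Scd2 had a change of −1.42, and Npc2, which moves cholesterol out of lysosomes, rose by 1.46.

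Amino acid genes linked to stress had more rises than falls. Of 30 genes of serine, one-carbon and amino acid synthesis and ATF4 targets, 15 rose and 4 fell (14 and 2 without experiment 1, 12 and 11 with library totals), led by the cystine transporter Slc7a11 (44.5, 47.1 and 61.7 CPM to 724, 329.7 and 539.6 CPM, 3.38) and the glutathione-degrading Chac1 (3.02). The asparagine synthetase Asns rose by 0.83. Of 33 iron, haem and antioxidant genes, 12 rose (36.4%) and 7 fell (21.2%), against 26.4% and 28.7% of all genes. These numbers were 9 and 4 without experiment 1 and without experiment 3, and 9 and 14 with library totals. Metallothionein Mt2 rose by 3.15, the zinc and iron importer Slc39a14 by 1.78 and the haem oxygenase Hmox1 by 1.19, whereas Gclc, which catalyses the first step of glutathione synthesis, fell by 1.28. Of 32 nucleotide synthesis genes, 3 rose and 19 fell (0 and 15 without experiment 1, 5 and 19 without experiment 2, 1 and 17 without experiment 3, 0 and 25 with library totals), and their share went from 0.443% to 0.258% of the pool. Thymidine kinase Tk1 went from 159, 137.6 and 170.1 CPM to 16.1, 23.7 and 32.4 CPM (−2.69 ± 0.26 (SE) on the log2 scale), and Rrm2, the small subunit of ribonucleotide reductase, from 102.8, 111.7 and 112.8 CPM to 20.3, 34.3 and 47.8 CPM (−1.68).

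The share of the pool taken by ribosomal protein mRNAs did not separate the groups. The 81 cytosolic ribosomal protein mRNAs, whose translation is classically under mTOR control, took 4.04, 4.79 and 4.07% of the control pools and 4.70, 4.35 and 3.94% of the LPS pools. The groups overlapped (exact permutation test over libraries, two-sided p = 1, where 3 against 3 cannot go below 0.1). Relative to the typical gene, 49 rose and none fell, with a median of 0.38 and experiment medians of 0.59, 0.22 and 0.32. This count rested on experiment 1 and on the scaling: 1 rose without experiment 1 and 17 without experiment 3, 54 rose and 3 fell without experiment 2, and 2 rose and 1 fell with library totals. Rpl24 rose by 0.74, and ribosomal protein genes have pseudogene copies that could share their reads.

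Of 49 translation initiation and elongation factors, 27 rose and 3 fell (9 and 2 without experiment 1, 10 and 2 without experiment 3, 6 and 15 with library totals), and their share of the pool was 2.51% in control and 2.52% with LPS. Eif1, which guards start codon choice, went from 82.7, 100.3 and 94.4 CPM to 230.5, 183 and 217 CPM (1.18 ± 0.16 (SE) on the log2 scale). Eef2k, the kinase that inhibits elongation factor 2, fell by 1.65 and Eif4ebp2, a repressor of cap-dependent initiation, by 0.95, while Eef2 itself (0.04) did not pass the test. Of 67 ribosome biogenesis genes, 11 rose (16.4%) and 7 fell (10.4%), below the 26.4% and 28.7% of all genes. These numbers were 1 and 2 without experiment 1, 28 and 8 without experiment 2 and 1 and 6 without experiment 3. With library totals they were 0 and 29. Ubtf, an activator of rRNA transcription, fell by 0.95. Of 77 mitochondrial ribosomal protein genes, 12 rose (15.6%), below the 26.4% of all genes, and 20 fell, a share near the 28.7%. These numbers were 3 and 9 without experiment 1, 19 and 28 without experiment 2 and 4 and 8 without experiment 3. With library totals they were 2 and 51. Of 20 cytosolic aminoacyl-tRNA synthetases, 10 rose and none fell (3 and 0 without experiment 1, 13 and 1 without experiment 2, 4 and 0 without experiment 3, 2 and 4 with library totals). The 10 mitochondrially encoded mRNAs held 0.648% of the control and 0.654% of the LPS counts.

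Genes of protein folding and degradation had small rises. Of 38 genes of ER chaperones, translocation and the unfolded protein response, 26 rose and 2 fell (16 and 2 without experiment 1, 27 and 3 without experiment 2, 8 and 4 with library totals), with a median of 0.46. Herpud1, of ER-associated degradation, rose by 2.25 and the co-chaperone Dnajb9 by 1.89. Hspa5 (BiP), the main ER chaperone, was at 1074, 618 and 926 CPM in control and at 2102, 1952 and 1796 CPM with LPS (1.16), above control in every library. Of 40 proteasome genes, 31 rose and 2 fell (13 and 2 without experiment 1, 31 and 3 without experiment 2, 15 and 1 without experiment 3, 8 and 6 with library totals), with Psma6 rising by 1.58.

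Endo-lysosomal genes, which the study set out to follow, included rises and falls, beside 26.4% of all genes called higher and 28.7% lower. Of 19 V-ATPase genes, which acidify the lysosome, 9 rose (47.4%) and 1 fell (5.3%). These numbers were 5 and 1 without experiment 1, and 2 and 3 with library totals. Atp6v0a1 rose by 1.21 and Atp6v0e2 fell by 0.73. Of 30 lysosomal membrane genes, 11 rose (36.7%) and 7 fell (23.3%; 8 and 14 with library totals). The metal transporter Slc11a2 went from 4969, 4339 and 5199 counts to 13000, 13447 and 10891 counts (1.76 ± 0.17 (SE) on the log2 scale), while Tpcn1, a cation channel of the lysosome, fell by 1.44. Lamp1, the most common marker of the lysosomal membrane, was at 836, 850.1 and 948 CPM in control and 999.5, 936 and 1087 CPM with LPS. Its groups overlapped by 1 library of each and its change of 0.20 did not pass the test (edgeR's quasi-likelihood test, adjusted p = 0.329).

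Of 48 lysosomal hydrolases, 10 rose (20.8%) and 14 fell (29.2%), against 26.4% and 28.7% of all genes. These numbers were 9 and 4 without experiment 1, 10 and 21 without experiment 2 and 6 and 8 without experiment 3. With library totals they were 6 and 33. Cathepsin C (Ctsc), which activates serine proteases, went from 5587, 4031 and 6599 counts to 27007, 21880 and 23531 counts (2.58 ± 0.23 (SE) on the log2 scale). Sgsh, which degrades heparan sulphate, went the other way, from 35.9, 21.4 and 32.2 CPM to 3.68, 6.28 and 7.60 CPM (−2.35 ± 0.29 (SE)), and Hyal1, a hyaluronidase, fell by 1.28. Of 42 genes of the TFEB family, mTOR and nutrient sensing, 13 rose and 11 fell, shares near the 26.4% and 28.7% of all genes. These numbers were 5 and 9 without experiment 1, 7 and 7 without experiment 3, and 4 and 23 with library totals. Tfeb, a transcription factor for lysosomal genes, went from 37.2, 18.9 and 29.9 CPM to 3.84, 4.53 and 3.11 CPM (−2.90 ± 0.32 (SE) on the log2 scale; edgeR's quasi-likelihood test, adjusted p = 8.70e-05), whereas its family member Tfec rose by 2.21.

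The sestrins, stress proteins that inhibit mTORC1, were opposed: Sesn1 went from 40.4, 28.9 and 41.2 CPM to 7.46, 5.72 and 6.98 CPM (−2.46) and Sesn2 from 19.01, 13.1 and 16.03 CPM to 123.6, 95.4 and 26.98 CPM (2.35). Each pair of groups was separate, in opposite directions. Of 41 autophagy genes, 14 rose (34.1%) and 14 fell (34.1%), against 26.4% and 28.7% of all genes. These numbers were 5 and 7 without experiment 1, 8 and 5 without experiment 3, and 2 and 23 with library totals. The autophagy receptor Sqstm1 (p62) rose by 1.60 and the initiating kinase Ulk1 fell by 0.99.

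Proliferation genes fell together. Of 49 DNA replication genes, 45 fell and 1 rose (Orc4; 0 and 40 without experiment 1, 2 and 43 without experiment 2, 0 and 39 without experiment 3), with a median of −1.07 and 27 large falls. Their share was 0.582, 0.544 and 0.597% of the control pools and 0.195, 0.217 and 0.240% of the LPS pools. Ccne1 (cyclin E1), which drives entry into S phase, went from 67.2, 61.7 and 67.4 CPM to 5.91, 13.4 and 15.2 CPM, −2.50 ± 0.32 (SE) on the log2 scale (edgeR's quasi-likelihood test, adjusted p = 0.000222). Mcm5, a subunit of the replicative helicase, went from 498, 333 and 436 CPM to 191, 170.3 and 204 CPM (−1.16), the sliding clamp Pcna fell by 1.09 and E2f2, an activator of S phase genes, by 2.88. No LPS library reached a control library for Ccne1 or Mcm5.

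Mitosis genes fell as well. Of 52, 46 fell and none rose (median −0.80, 15 large falls), and their share was 0.618, 0.676 and 0.736% of the control pools and 0.307, 0.255 and 0.376% of the LPS pools. Ccnf (cyclin F) fell by 1.58, Espl1 (separase) by 1.37 and Foxm1, a transcription factor of G2 and M phase genes, by 1.44. Of 22 cell cycle entry genes and inhibitors, 5 rose (22.7%) and 10 fell (45.5%), against 26.4% and 28.7% of all genes. The falls included the atypical E2F factors E2f7 and E2f8 (−2.54 and −2.72), and the rises were Btg1, Mdm2, Cdk6, the anti-proliferative Btg2 (1.68) and the cyclin kinase inhibitor Cdkn1a (1.34).

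Replication-dependent histone mRNAs, which are made in S phase and end in a stem-loop in place of a poly(A) tail, had the lowest median of all lists. Of 56, 55 fell and none rose, 39 of them as large falls, with a median of −2.12 on the log2 scale. The remaining gene, Hist3h2a (−0.48), did not pass the test. Their share was 1.47, 0.813 and 1.07% of the control pools and 0.196, 0.349 and 0.125% of the LPS pools. Experiment 2 had the lowest control and the highest LPS share, and its median change was −0.68 against −2.55 and −2.87 in experiments 1 and 3. Without experiment 1, 30 fell, and without experiments 2 and 3, 56 and 51. Why experiment 2 differed was not tested.

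Hist1h1a was at 1360.5, 1089 and 1024 CPM in control and at 254, 254 and 207 CPM with LPS, −2.28 ± 0.27 (SE) on the log2 scale. Hist1h3g, of histone H3, was at 184, 63.4 and 143 CPM in control and at 10.7, 24.1 and 7.94 CPM with LPS, −3.19 ± 0.70 (SE) on the log2 scale (edgeR's quasi-likelihood test, adjusted p = 0.0055). In both, every LPS library was below every control library. Histone genes are a family of near-identical copies, so the split of reads between them is uncertain.

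**Figure D4:**
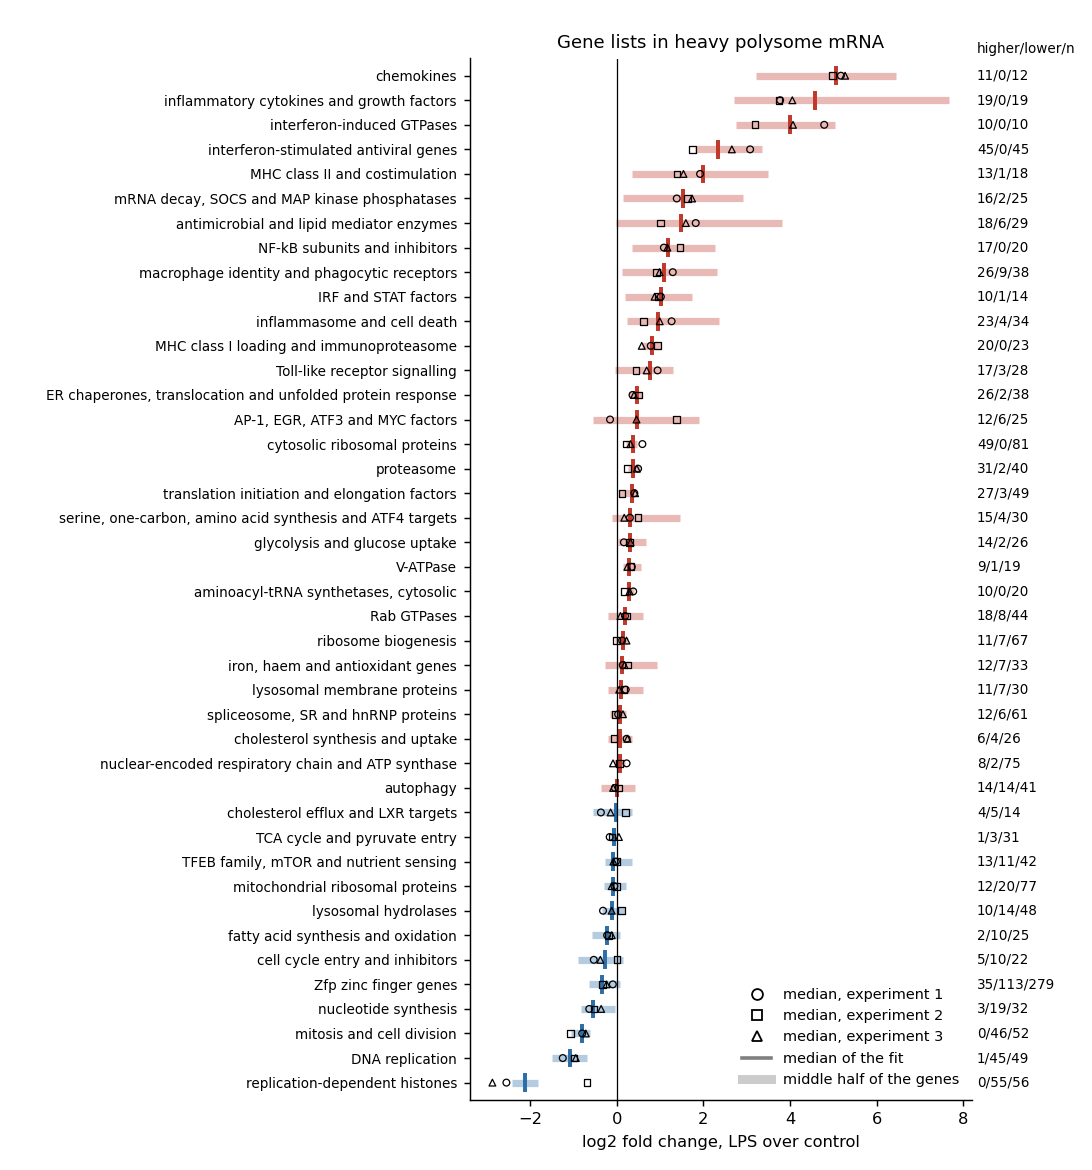
Change of gene lists in heavy polysomes with LPS, as log2 fold change on the x axis, with the numbers of genes called higher, called lower and analysed at the right. The vertical mark is the median of the fitted changes, the broad bar runs from the lower to the upper quartile of the genes, and symbols are the medians of experiments 1 to 3 on the log2(CPM + 0.5) scale. Chemokines (5.06), cytokines (4.57) and interferon-induced GTPases (4.0) lie at one end, histones (−2.12), DNA replication (−1.07) and mitosis (−0.80) at the other.

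Of 61 spliceosome, SR and hnRNP genes, 12 rose (19.7%) and 6 fell (9.8%), below the 26.4% and 28.7% of all genes. These numbers were 0 and 1 without experiment 1, 0 and 4 without experiment 3 and 21 and 14 without experiment 2. With library totals they were 0 and 31. Zinc finger genes of the Zfp family, many of them transcriptional repressors, leaned to falls. Of 279, 35 rose and 40.5% fell, with a median of −0.33. Without experiment 1, 14 rose and 82 fell, without experiment 3, 18 and 68, without experiment 2, 49 and 97, and with library totals 10 and 189. Zfp651 fell by 3.54 and Zfp362 by 2.71. Of 44 Rab GTPases, which direct vesicle traffic, 18 rose (40.9%) and 8 fell (18.2%; 10 and 18 with library totals). Rab20, found on phagosomes, went from 10.03, 8.56 and 6.07 CPM to 69.3, 66.3 and 32.4 CPM (2.77), and Rab27a fell by 2.90. The 46 lists together held 1737 of the genes tested, 254 of the 954 large rises and 152 of the 962 large falls, so most large changes lay outside them.

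The changes in polysomes lay close to those in total mRNA. In total mRNA, 7471 genes were called. Large rises had a median of 1.80 in polysomes and 1.76 in total mRNA, and large falls −1.42 and −1.35. For 10588 genes (94.2%) both changes differed by at most 0.5 on the log2 scale, among them 880 of the large rises and 852 of the large falls. edgeR's test of the difference between both changes called 0 genes (0%) at an adjusted p of at most 0.25, with a smallest adjusted p of 0.9999. At an unadjusted p under 0.05 there were 44 genes, 24 more increased in polysomes and 20 less. If no gene differed, a share near 0.05 of the 11243 genes would pass by chance, far more than 44. The test was therefore stricter than its threshold in these data, and 0 calls do not show that no mRNA differed. This fit treats the total and polysome libraries of 1 lysate as independent. When the 2 RNA types were paired within lysates (the replicate block), edgeR again called 0 genes and the smallest adjusted p was 0.5909. In that fit 164 genes had an unadjusted p under 0.05, also below the share expected by chance. Without experiment 2 that number was 164, without experiment 1 it was 31 and without experiment 3 it was 24, each with 0 calls. DESeq2 called 1, Tmem132a. The study, with another method (anota2seq) on these data and the same 0.25 threshold, did report a subset of mRNAs with altered translation efficiency. Few of these were lysosomal, among them the mRNAs of M6PR, LAMP2 and Cln3. That method was not run here, so the 0 calls of edgeR do not test the study's result. In data simulated for this design with independent libraries, edgeR recovered 90.0% of 200 genes given a log2 difference of 2. Of its 224 calls there, 44 were genes left unchanged. The simulation thus did not show the strictness seen in the real data, and its recovery may not hold for them. Differences of this size and smaller ones may have been missed. The plot of polysome against total change shows the points along the diagonal.

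**Figure D5:**
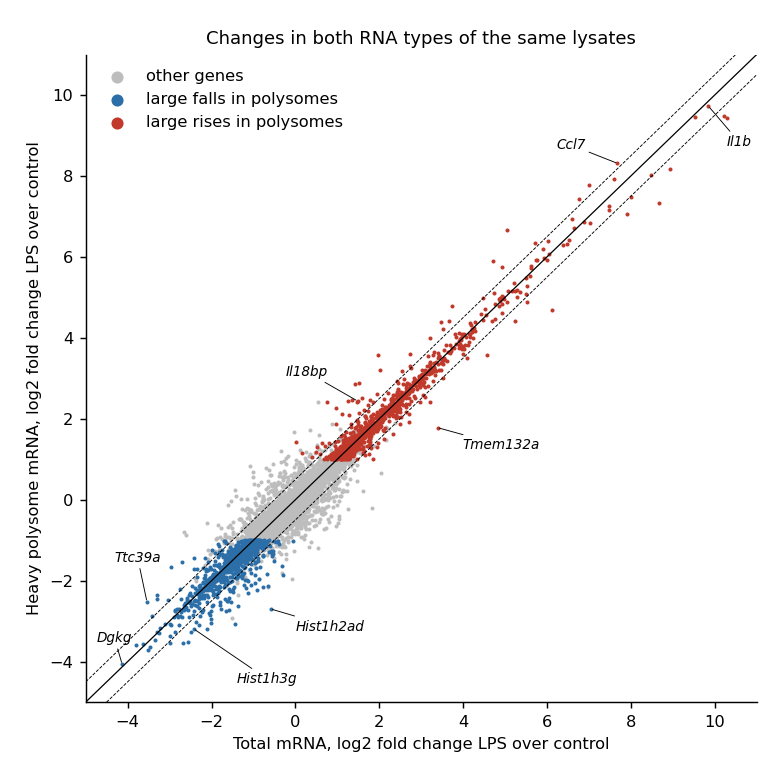
Change with LPS in heavy polysome mRNA (y axis) against total mRNA of the same lysates (x axis), both as log2 fold change, for 11243 genes. The solid line marks equal change and the dashed lines a difference of 0.5 to either side, between which 94.2% of the genes lie. Large rises (red) and large falls (blue) in polysomes run along the diagonal, and no gene passed edgeR's adjusted test of a difference.

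The 5 genes of smallest unadjusted p in each direction are given as values that did not pass edgeR's adjusted test. Tmem132a changed by 1.78 in polysomes and 3.39 in total mRNA. The histone Hist1h2ad changed by −2.70 and −0.59, and the mitochondrial polymerase subunit Polg2 by −0.81 and −0.09. Gm5239 changed by −0.19 and 1.84, and Zfp503 by −1.86 and −0.29. In the other direction Il18bp, which neutralises interleukin-18, changed by 2.44 in polysomes and 1.48 in total mRNA, and the folate receptor Folr1 by 1.15 and 0.17. Ccdc17 changed by 0.35 and −0.55, Ttc39a by −2.52 and −3.54, and Ccdc171 by 0.18 and −0.65. Histones as a group had a median of −2.12 in polysomes and −1.49 in total mRNA, and ribosomal proteins 0.38 and 0.28. Among endo-lysosomal genes, the changes in polysomes and total mRNA were 0.20 and 0.18 for Lamp1, 0.62 and 0.59 for Atp6v1h, 1.46 and 1.37 for Npc2 and −2.35 and −2.15 for Sgsh. Atp6v1h was no longer called with library totals.

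The promoters of large rises had lower CpG ratios than those of large falls. RefSeq windows were matched for 9016 of 11243 genes, 80.1 to 81.5% in each class. The ratio of observed to expected CpG was over 0.6, a common limit for CpG islands, in 49.7% of the windows of large rises, 74.5% of those of large falls and 76.9% of those of other genes. The median ratio was 0.280 for the interferon-stimulated antiviral genes and 0.314 for the cytokines, and 0.875 for DNA replication, 0.889 for mitosis and 0.906 for ribosomal proteins. These shares describe the classes, with no test.

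Stretches of 150 bases from 4 promoters show both ends of this range, 2 of mRNAs that rose and 2 that fell. They are from RefSeq on GRCm38.p6, at chr2:129371090-129371239 on the minus strand for Il1b, chr5:104435011-104435160 on the plus strand for Spp1, chr12:24708154-24708303 on the plus strand for Rrm2 and chr7:38107441-38107590 on the minus strand for Ccne1. Capitals mark each CpG.
Il1b: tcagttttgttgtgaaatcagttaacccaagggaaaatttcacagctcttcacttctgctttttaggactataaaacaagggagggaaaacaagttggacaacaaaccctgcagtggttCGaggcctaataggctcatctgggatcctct
Spp1: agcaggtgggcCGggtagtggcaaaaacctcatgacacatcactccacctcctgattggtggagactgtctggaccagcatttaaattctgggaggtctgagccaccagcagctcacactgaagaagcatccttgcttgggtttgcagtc
Rrm2: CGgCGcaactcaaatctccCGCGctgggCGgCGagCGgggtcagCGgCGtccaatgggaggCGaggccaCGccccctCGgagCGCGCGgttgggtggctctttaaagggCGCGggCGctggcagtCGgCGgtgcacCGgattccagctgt
Ccne1: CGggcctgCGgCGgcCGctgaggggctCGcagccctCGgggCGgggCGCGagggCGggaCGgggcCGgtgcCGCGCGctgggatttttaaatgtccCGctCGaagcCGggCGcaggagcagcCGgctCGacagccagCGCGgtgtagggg
The stretches of Il1b and Spp1 hold 1 CpG each, and those of Rrm2 and Ccne1 hold 21 and 23.

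The classes were also compared by transcript length. The median coding length was 1335 bases for large rises, 1545 for large falls and 1362 for other genes. The median 5′ UTR was 200, 167 and 159 bases long and the median 3′ UTR 1028, 997 and 889 bases, in gene models for 98.4 to 99.7% of each class. The cAMP response element TGACGTCA stood in 2.88% of the promoter windows of large rises, 2.30% of those of large falls and 3.70% of those of other genes.

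On GRCm38, the leading rise Il1b lies at chr2:129364570-129371139 and the leading fall Dgkg at chr16:22468461-22657221, both on the minus strand. Csf3 lies at chr11:98701263-98703629, Irg1 at chr14:103046977-103056573 and Tfeb at chr17:47737030-47792419, all on the plus strand. Some of the genes described share their place in the genome with others. On the opposite strand, Il1b overlaps Il1bos, Tk1 overlaps Afmid, Cxcl10 overlaps Art3, Tap1 overlaps Psmb9, Csf1r overlaps Hmgxb3, Sqstm1 overlaps Mrnip, Lamp1 overlaps Grtp1 and Sgsh overlaps Card14. On the same strand Serpinb2 overlaps Serpinb10 and Ticam2 overlaps Tmed7. Whether the counting used strand is not given in the sources used here, so reads of such pairs cannot be told apart with certainty.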

How the data were processed

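The authors deposited 1 table of raw counts per gene. Total and heavy polysome RNA were sequenced as paired-end reads from rRNA-depleted stranded libraries. Per the methods, the authors ran a nextflow RNA-seq pipeline (version 1.3), aligned reads to GRCm38 with Hisat2, counted them with featureCounts on Ensembl genes, and kept protein-coding genes with counts in every library. That filter removes genes silent in any library.

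Counts were fitted with edgeR 4.0.16 (TMM, glmQLFit and glmQLFTest, R 4.3.3) over the 9 polysome libraries (control, LPS, and LPS with 100 nM torin1 added 15 min before), with treatment as the only term and Benjamini-Hochberg adjustment over 11243 genes. The threshold of 0.25 follows the study's methods; anota2seq, used there, was not run. Total mRNA was fitted likewise, and the difference between both RNA types over 18 libraries in 6 groups. On simulated counts of the polysome comparison at 0.25, with 200 genes given a 2-unit log2 change, 97.5% of them were recovered, and 77 of 272 calls were genes left unchanged. Replicates are independent experiments, and depth was 34930909 to 45801886 counts in the 6 libraries compared. Pool shares are shares of counts, with no correction for transcript length, and were compared by exact permutation tests over libraries. Changes per experiment used log2(CPM + 0.5), which understates low genes. Promoter windows came from RefSeq (GRCm38.p6), overlaps and lengths from GENCODE models on GRCm38. Coding length replaced the planned protein length.

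The gene lists and rules were chosen with earlier results of these data known. Genes named are the 10 largest rises and falls (adjusted p of at most 0.05, a mean of at least 1 CPM, 1 direction in 3 experiments), the 2 largest called changes each way per list and its leading members, the 10 most abundant genes, up to 8 entering and 8 leaving genes, the 5 smallest p of the difference each way, and the mRNAs named by the study. The 10 largest share gains and losses, the remaining entering genes, single genes named to complete a count, and further examples (such as Il18, Itgam, Gpr183, Mef2c, Rasgrp3, Foxm1) were chosen after their values were seen. Some genes that this rule names are not reported here. Alternatives were a replicate block, only the LPS and control libraries, DESeq2 1.42.0 as a test or for scaling, library totals, a filter on low CPM, other CPM limits, and leaving out each experiment. For pool shares, the alternative was the share per base of transcript.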

Additional observations from a re-analysis of the deposited data

How the results depend on the processing

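Leaving out 1 experiment moved the calls to between 3901 (without experiment 1) and 7251 (without experiment 2), the rises to between 1881 and 3441, the falls to between 2020 and 3810, the large rises to between 740 and 995, the large falls to between 532 and 1223, the entering mRNAs to between 18 and 31 and the leaving mRNAs to between 5 and 7. Leaving out an experiment also removes libraries from the fit. At a stricter adjusted p of 0.05, 3654 genes were called, 1787 higher and 1867 lower. With library totals 1539 genes were called higher and 6101 lower, with 1858 large falls. With limits of 0.5 and 10 CPM, 4 mRNAs entered and 0 left, and with TMM-scaled CPM 1 left. DESeq2 called 1 difference between polysome-associated and total change, and edgeR called 0 under every alternative run. The number of calls was 6256 with only the 6 LPS and control libraries, 6035 with DESeq2, 6192 with DESeq2 size factors, 5924 with a mean of at least 1 CPM and 7640 with library totals.

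Single genes turned direction with library totals in 7 cases, of which Slc25a20 and Gapdh had been called: Tlr4 (−0.34), Slc25a20 (−0.007), Ncl (−0.32), Pkm (−0.33), Gapdh (−0.092), Mcoln1 (−0.22) and Cd68 (−0.26). Of 252 named genes 235 were called, and 199 of these stayed called under every alternative. The medians of 39 of 44 lists moved by more than their spread with library totals, and the numbers of list members called higher or lower moved by over 1.5 times in 50 of 88 cases. With pool shares taken per base of transcript, the result moved for 14 lists and stayed the same for 30.

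With a replicate block 7062 genes were called (3353 higher and 3709 lower, 968 large rises and 1058 large falls), and the difference between RNA types, blocked by lysate, had 0 calls. The replicates came from independent experiments, but no source used here states that a number marks a shared day or batch. The main test did not pair the libraries, while the changes per experiment set same-numbered control and LPS libraries against each other. The deviations of same-numbered control and LPS libraries correlated at 0.0853, −0.00943 and 0.388 for experiments 1 to 3, and control 1 correlated more with LPS 2 (0.165). The block turned 5 named genes that had not been called into calls and lost none. Depth limits the entering and leaving sets, since values under 1 CPM rest on at most 40 counts per library in the entering genes' controls.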
